A study of Andropogon gerardi with 32 samples.

Results

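The alpha-tubulin gene tua4 is 1 of 506 genes named in the platform annotation, and was represented by 5 of the 10447 probes on a spotted microarray that measured leaf RNA from Andropogon gerardii, or big bluestem, a perennial C4 grass of North American prairie. The members are all probes to which the platform annotation gave the symbol tua4, namely probes 181, 650, 1053, 1888 and 6149. Each comes from a different source accession and all carry 1 gene identifier. Total RNA from leaves was measured in 32 samples, 16 labelled ambient and 16 labelled altered rainfall. Each number in the sample titles, from 2 to 19, occurred once in each group (16 numbers). The 2 samples of a number lacked a value at exactly the same spots for every number, and they were treated as the 2 channels of 1 array. The labels name rainfall plots for some samples and treatment plants for others. They give no genotype, age, dye or rainfall amount, nor whether samples came from separate plants, so the p-values cover only the spread among the samples at hand, which may be technical.

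Alpha-tubulin pairs with beta-tubulin to form the subunit of microtubules, the hollow filaments of the cytoskeleton. In plant cells microtubules build the mitotic spindle and the structures that place the new wall at division. Beneath the plasma membrane of a growing cell they guide the laying down of cellulose and with it the direction of growth, a process most active in a grass leaf near its growing base. Plants carry several alpha-tubulin genes of very similar sequence. The symbol tua4 follows the naming of maize genes, so a probe value is the signal of a spot with that annotation. Whether related alpha-tubulin transcripts of big bluestem contributed to it was not tested.

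All 5 probes passed the filter of at least 8 values above 0 in each group. The number of numbers with a value in both samples was 16 for probe 1053, 15 for probe 181, 13 for probes 650 and 1888 and 11 for probe 6149. Spots with a value ran from 1833 in number 7 to 9530 in number 2. Number 19 measured tua4 at probe 1053 alone and number 7 at probes 181 and 1053. Values were taken as log2 and quantile normalized between samples, which gave a median of 6.56 over all spots and samples, with 4.53 and 9.45 as the 5th and 95th percentiles. As a sign of leaf tissue, the intense probe 4707 of Cab-m7, a chlorophyll a/b-binding protein gene of the light-harvesting antenna, lay between 10.50 and 13.67 in the 32 samples. The other Cab-m7 probe, 3766, had a value in 20 samples, between 4.79 and 7.67 with a median of 6.40. No symbol of a list of 39 other tubulin, actin and wall-growth genes was matched in the annotation (0 of 39), so tua4 is described here without its partners.

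None of the 5 tua4 probes passed the comparison of altered with ambient rainfall, which asks whether leaf transcripts differ under a changed rainfall regime (limma, Benjamini-Hochberg over the 6384 probes tested, threshold 0.05). Over all probes tested, 9.02% passed. Probe 181 had an unadjusted p under 0.05, the other 4 did not. The fitted differences, altered minus ambient, were positive for 4 of the 5 probes and their median was 0.15 log2 units, against 0.10 for all probes tested.

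Probe 181 gave the largest difference and the most uniform direction of the 5 probes. Under ambient rainfall its normalized log2 intensity ran from 5.35 (number 7) through a median of 6.62 to 8.22 (number 6). Under altered rainfall it ran from 6.69 (number 18) through a median of 7.54 to 8.26 (number 6). The groups overlapped, with 7 of 15 ambient samples above the lowest altered sample, and the low tail of the ambient group was missing from the altered one. Its mean over 15 samples a group was 6.74 ± 0.75 (SD, ambient) against 7.44 ± 0.49 (SD, altered). The difference was 0.70 ± 0.26 (SE) log2 units, a 1.63-fold higher level with a 95% confidence interval from 1.12-fold to 2.35-fold, and did not pass (limma, adjusted p = 0.092). With the title number as a replicate block the same difference passed (SE 0.21; limma, adjusted p = 0.042), as did the within-number loess log ratio of 0.47 ± 0.14 (SE; limma, adjusted p = 0.046). In those fits 9.21% and 8.52% of all probes tested passed.

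**Figure D1:**
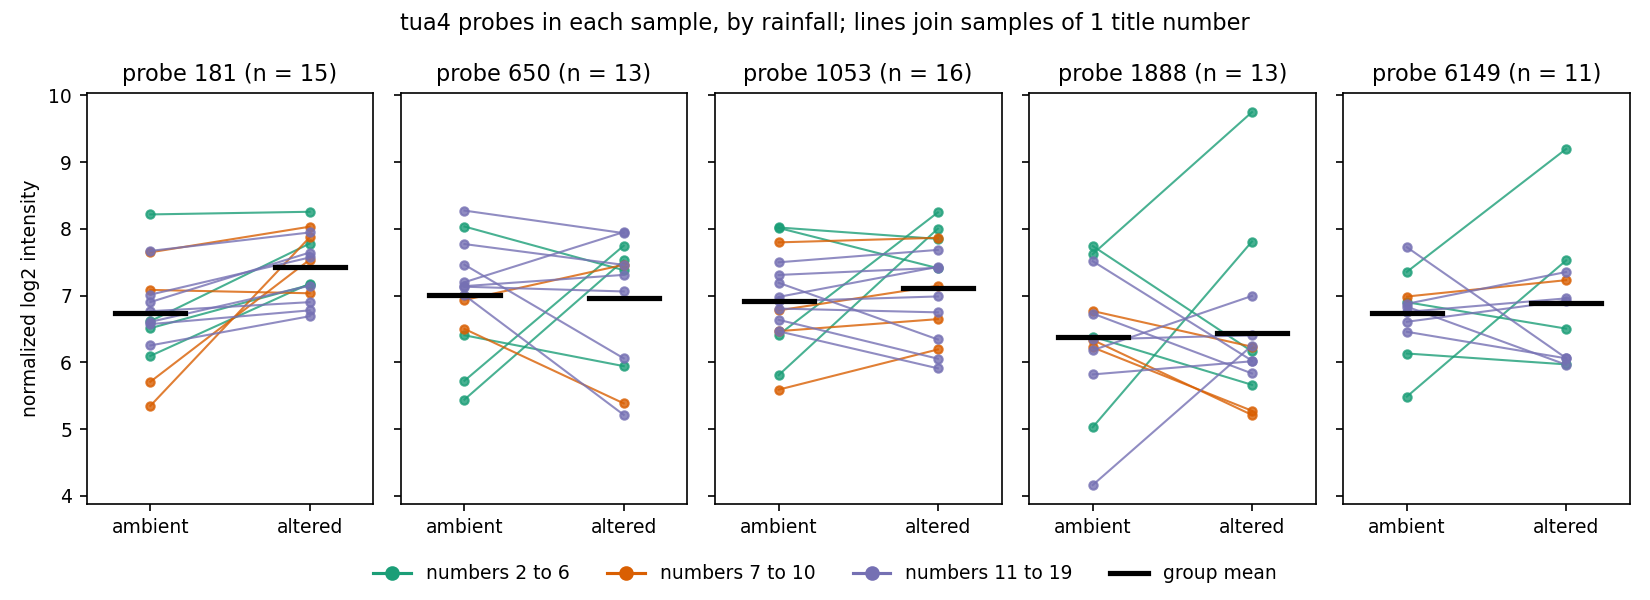
Normalized log2 intensity (vertical axis) of each tua4 probe under ambient and altered rainfall. Each line joins the 2 samples of 1 title number, coloured by the wording of the sample description, and black bars are group means. At probe 181, 14 of 15 lines go up from ambient to altered, while the lines of the other 4 probes cross.

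Within numbers, probe 181 was higher under altered rainfall in 14 of 15. The exception was number 10, at -0.05 log2 units, next to number 6 at 0.04. The largest differences after quantile normalization were those of number 7 (2.52) and number 9 (1.83), followed by number 4 (1.16) and number 2 (1.08). The median difference over the 15 numbers was 0.54. Between 11.1% (number 7) and 56.1% (number 10) of all spots of the same number had a higher difference than probe 181. In numbers 6 and 15 this share was 48.4% and 50.1%, so probe 181 lay near the middle of all spots there. How many other probes were as uniform in direction was not computed. Numbers 7 and 9 were arrays whose channels barely agreed: over all spots the log2 intensities of their 2 samples correlated at r = -0.31 and r = 0.05, and number 7 had the fewest spots. The deposited intensity of probe 181 in the ambient sample of number 7 was 6, against 161 in its altered sample.

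Leaving out numbers 7, 9 and 19 lowered the difference at probe 181 to 0.48 ± 0.25 (SE; limma, adjusted p = 0.27). Neither the replicate block (limma, adjusted p = 0.075) nor loess (0.43; limma, adjusted p = 0.098) then passed. Without number 7 alone the difference was 0.57 (limma, adjusted p = 0.18). On deposited values, 14 of 15 numbers were higher under altered rainfall, with median centring 13 and with loess 12. With loess numbers 7 and 9 gave 0.83 and 0.64, and the largest differences were those of number 2 (1.29) and number 11 (1.01). Without normalization the difference was 1.37, and it did not pass (limma, adjusted p = 0.068), where 5.37% of all probes passed and the median difference over all probes was 0.57. With median centring it was 0.68 and did not pass either (limma, adjusted p = 0.18; 7.53% of all probes passed).

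Probe 1053, the only tua4 probe measured in every sample, differed little between the groups. Its ambient values ran from 5.59 (number 9) through a median of 6.86 to 8.02 (number 6), and its altered values from 5.91 (number 19) through 7.28 to 8.25 (number 3). The 2 ranges nearly coincided. The means were 6.92 ± 0.71 (SD, ambient) and 7.12 ± 0.74 (SD, altered, n = 16 each). The difference was 0.20 ± 0.28 (SE) log2 units, with a 95% confidence interval from 0.78-fold to 1.69-fold (limma, adjusted p = 0.72). It was higher under altered rainfall in 10 of 16 numbers, and numbers 2 (2.19) and 3 (1.83) were far above the others, the next being number 9 at 0.60. Without numbers 2 and 3 the difference was -0.056 (limma, adjusted p = 0.94).

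Probe 650 was the only tua4 probe with a negative fitted difference. It ran from 5.44 (number 3) through 7.14 to 8.28 (number 17) under ambient and from 5.22 (number 11) through 7.38 to 7.95 (number 13) under altered rainfall, so the altered group had the higher median and the lower maximum. Its difference was -0.05 ± 0.35 (SE; limma, adjusted p = 0.96), with a 95% confidence interval from 0.59-fold to 1.58-fold, and it was higher in 5 of 13 numbers. Numbers 3 (2.08) and 2 (2.02) stood at one end and numbers 11 (-1.79), 14 (-1.40) and 8 (-1.12) at the other. Without numbers 2 and 3 the difference was -0.42 ± 0.35 (SE; limma, adjusted p = 0.54).

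Probe 1888 had the widest spread of the 5. Its ambient values ran from 4.16 (number 18) through 6.34 to 7.74 (number 6), and its altered values from 5.21 (number 8) through 6.17 to 9.75 (number 2). The highest altered value lay 2.01 log2 units above every ambient value, and the medians were in the opposite order. The SD was 1.004 under ambient and 1.21 under altered rainfall (n = 13 each). The difference was 0.06 ± 0.40 (SE; limma, adjusted p = 0.95), with a 95% confidence interval from 0.59-fold to 1.84-fold, and 6 of 13 numbers were higher. It was -0.36 ± 0.33 (SE; limma, adjusted p = 0.58) when numbers 2 and 3 were left out.

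Probe 6149 was measured in the fewest numbers. Its ambient values ran from 5.49 (number 3) through 6.84 to 7.73 (number 12) and its altered values from 5.97 (number 17) through 6.93 to 9.20 (number 2). Apart from number 2, the altered values lay within the ambient range. The difference was 0.15 ± 0.36 (SE; limma, adjusted p = 0.85), with a 95% confidence interval from 0.67-fold to 1.83-fold. It was higher in 6 of 11 numbers. Leaving out numbers 2 and 3 gave -0.24 ± 0.32 (SE; limma, adjusted p = 0.71).

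**Figure D2:**
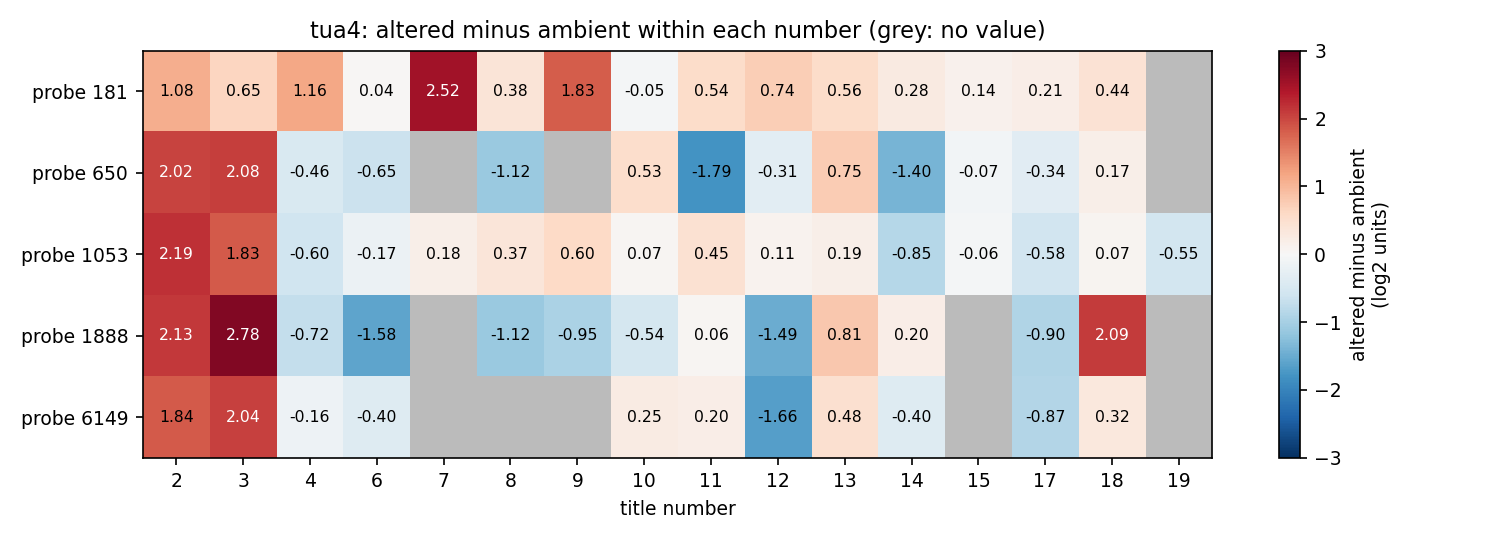
Altered minus ambient rainfall (log2 units, colour and printed value) at each tua4 probe (rows) within each title number (columns). Grey cells have no value. Numbers 2 and 3 are positive at all 5 probes, and numbers 4, 6 and 17 are positive at probe 181 alone.

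The 5 probes could be compared within the 11 numbers that measured all of them. In 4 of these (numbers 2, 3, 13 and 18) all 5 were higher under altered rainfall, in none (0 of 11) were all lower, and in 7 the directions were mixed. In 3 of the mixed numbers (4, 6 and 17) probe 181 was higher and the other 4 were lower. In number 4 probe 181 differed by 1.16 while the others lay between -0.72 and -0.16.

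After quantile normalization, numbers 2 and 3 had the 2 largest differences at probes 650, 1053, 1888 and 6149, from 1.83 to 2.78 log2 units. The next largest was 2.09 at probe 1888 (number 18), close to number 2 there, and at most 0.75 at the other 3 probes. In number 2 these probes were among the larger differences of the array, with between 3.81% and 5.58% of all spots higher. In number 3 between 4.25% and 12.2% of spots were higher. With within-number loess, number 3 gave 0.83, 0.85, 1.30 and 0.81 at probes 650, 1053, 1888 and 6149. Number 2 gave 2.37, 2.75, 2.61 and 2.49 there. At probe 1888 number 18, at 2.44, then lay above number 3. Over all spots the log2 intensities of the 2 samples correlated at r = 0.73 in number 2 and r = 0.31 in number 3. In number 2, probes 1888 and 6149 had deposited intensities of 317 and 216 in the ambient sample and 3897.54 and 2686.86 in the altered sample. The altered values stood at the 96.3th and 93.6th percentiles of that sample's spots. Before normalization the median over all spots above 0 was 5.93 (log2) in the ambient and 8.46 in the altered sample of number 2, and at probe 181 the deposited values there were 39 and 542.8. A relation of these differences to the scaling of the channels was not tested.

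**Figure D3:**
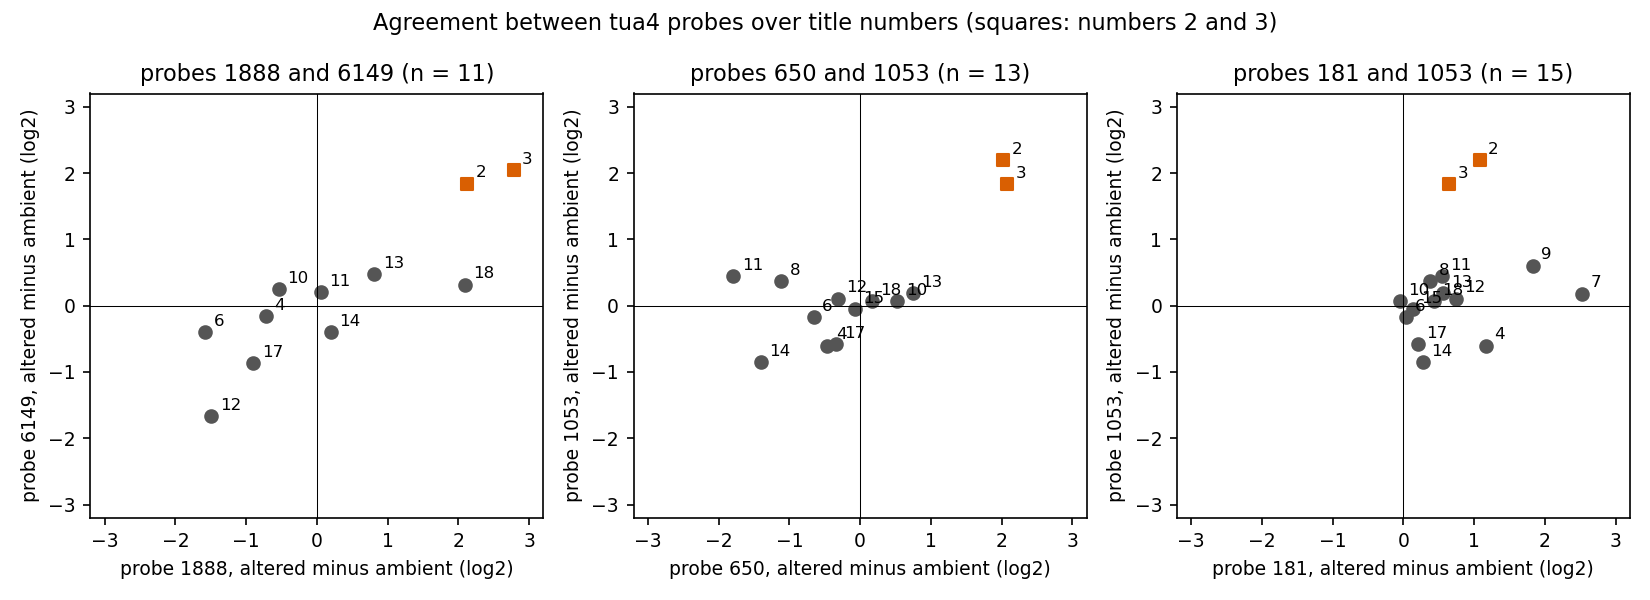
Altered minus ambient rainfall (log2 units) at 1 tua4 probe against another, with each point a title number. Orange squares are numbers 2 and 3. Probes 1888 and 6149 follow each other over the remaining numbers too (r = 0.68), whereas the relation of probes 650 and 1053 rests on the squares (r = 0.09 without them).

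Agreement between probes was measured by correlating these differences over numbers, for all 10 pairs (permutation tests, 100000 resamples, two-sided, Benjamini-Hochberg over the 10 pairs). The 6 pairs among probes 650, 1053, 1888 and 6149 had r from 0.63 to 0.86 and all passed (permutation, adjusted p from 0.0037 to 0.037). By rank, 1 of the 6 passed, with Spearman's rho from 0.34 to 0.85. The 4 pairs with probe 181 had r from 0.08 to 0.31 and none passed (permutation, adjusted p from 0.42 to 0.79; rho from 0.18 to 0.49). Without normalization all 10 pairs passed, with r of at least 0.67. Those differences keep any offset between the 2 whole samples of a number. The median log2 over spots above 0 was 4.81 (ambient) and 7.34 (altered) in number 10. In number 9 it was 6.75 and 5.57. How many pairs of other probes correlated as highly without normalization was not computed, so this count says nothing particular about tua4. With within-number loess 4 of the 6 pairs passed, and so did 1 pair with probe 181, that with probe 1053 (r = 0.57; permutation, adjusted p = 0.044; rho = 0.44, adjusted p = 0.14).

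Most of the correlation among the 4 probes rested on numbers 2 and 3. In each of the 6 pairs these were the 2 numbers farthest from the median of the lower-numbered probe. Probe 6149 was never that probe, so its own median was not used. Leaving out such far points tends to lower r. With both numbers left out, r for the 6 pairs ran from 0.02 to 0.68 and 0 of the 10 pairs passed (permutation, 1 pair at an unadjusted p under 0.05). Signs still agreed in 8 of 9 numbers for probe 6149 with probe 650 and with probe 1053. The lowest such count was 6 of 11, for probes 1053 and 1888. Over all numbers, between 0.0785% and 3.84% of all probes correlated more highly with 1 probe of a pair than its partner did. Without numbers 2 and 3 this share was between 21.0% and 50.9% for the 5 pairs other than probes 1888 and 6149. Within numbers 11 to 19, whose descriptions share a wording, r for the 6 pairs ran from 0.12 to 0.86 and 0 of 10 passed. Each pair had only 6 or 7 numbers there, and even r = 0.86 did not pass (permutation, adjusted p = 0.30). The empty count therefore cannot tell whether agreement was absent.

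Probes 1888 and 6149 were the pair that agreed most closely. Their differences correlated at r = 0.86 (rho = 0.85, n = 11; permutation, adjusted p = 0.0037 for r and 0.019 for rho), at r = 0.68 without numbers 2 and 3 (permutation, unadjusted p = 0.044, adjusted p = 0.44) and at r = 0.86 within numbers 11 to 19 (n = 6). Of 6067 other probes, 9 correlated with probe 1888 at a higher r than probe 6149 did, and the median r over all of them was 0.04. With numbers 2 and 3 left out, 100 of 4881 did. The 2 probes had the same sign in 9 of 11 numbers. Number 10 (-0.54 at probe 1888 and 0.25 at probe 6149) and number 14 (0.20 and -0.40) had opposite signs, and in number 18 the sizes lay far apart (2.09 and 0.32).

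Levels were also correlated between probes within each rainfall group. Probes 1888 and 6149 correlated over the altered samples at r = 0.94 (rho = 0.96, n = 11; permutation, adjusted p = 2e-04 over 20 pairs and groups, from an unadjusted 1e-05, the smallest that these permutations can give). Without numbers 2 and 3, the 2 farthest from the median of probe 1888, r was 0.85, and within numbers 11 to 19 it was 0.92 (n = 6). Over the ambient samples r was 0.67 (rho = 0.77; permutation, adjusted p = 0.13 for r and 0.030 for rho). Probe 1053 followed both by rank under altered rainfall, with rho = 0.75 for probe 1888 and 0.85 for probe 6149 (permutation, adjusted p = 0.022 and 0.012), where r was 0.60 and 0.63 and did not pass (0.13 and 0.17). Under ambient rainfall the same pairs had r = 0.16 and 0.01 (rho = 0.31 and 0.14) and did not pass (permutation, adjusted p = 0.71 and 0.97 for r). Over both groups, each sample taken from its group mean, between 14.3% and 20.0% of all probes correlated more highly with a probe of these pairs than its partner did.

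Probe 181 agreed in level with probe 1053 under ambient rainfall only by rank (rho = 0.74, n = 15; permutation, adjusted p = 0.012; r = 0.66, adjusted p = 0.069). Under altered rainfall the same pair gave r = 0.05 (rho = 0.04; permutation, adjusted p = 0.91 and 0.89). The difference between these 2 correlations was not tested. Over both groups, each sample taken from its group mean, 7.69% of all probes correlated more highly with probe 181 than probe 1053 did. For probe 1053, 11.5% of all probes did so more highly than probe 181.

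Whether probes differed from each other in their response was tested on the difference between 2 probes within each number (exact paired permutation test over numbers, two-sided, Benjamini-Hochberg over 10 pairs). None passed (0 of 10; none at an unadjusted p under 0.05). The smallest p was that of probes 181 and 1053, whose differences averaged 0.70 and 0.25 over the same 15 numbers, so that probe 181 exceeded probe 1053 by 0.45 (95% confidence interval from -0.07 to 0.97; exact p = 0.087, adjusted p = 0.54) and did so in 12 of 15. The intervals of the other pairs also held 0. In numbers 2 and 3 probe 181 differed by 1.08 and 0.65, and every other probe by at least 1.84 and 1.83. Leaving out these numbers, a choice made after the data were seen, therefore had to widen the gap. The p-values that follow carry that choice and are no test of it. The same excess was then 0.69 (12 of 13 numbers, exact, adjusted p = 0.012). Probe 181 exceeded the other 3 probes by 0.68 to 0.93 without passing (exact, adjusted p = 0.065, 0.090 and 0.065 for probes 650, 1888 and 6149).

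**Figure D4:**
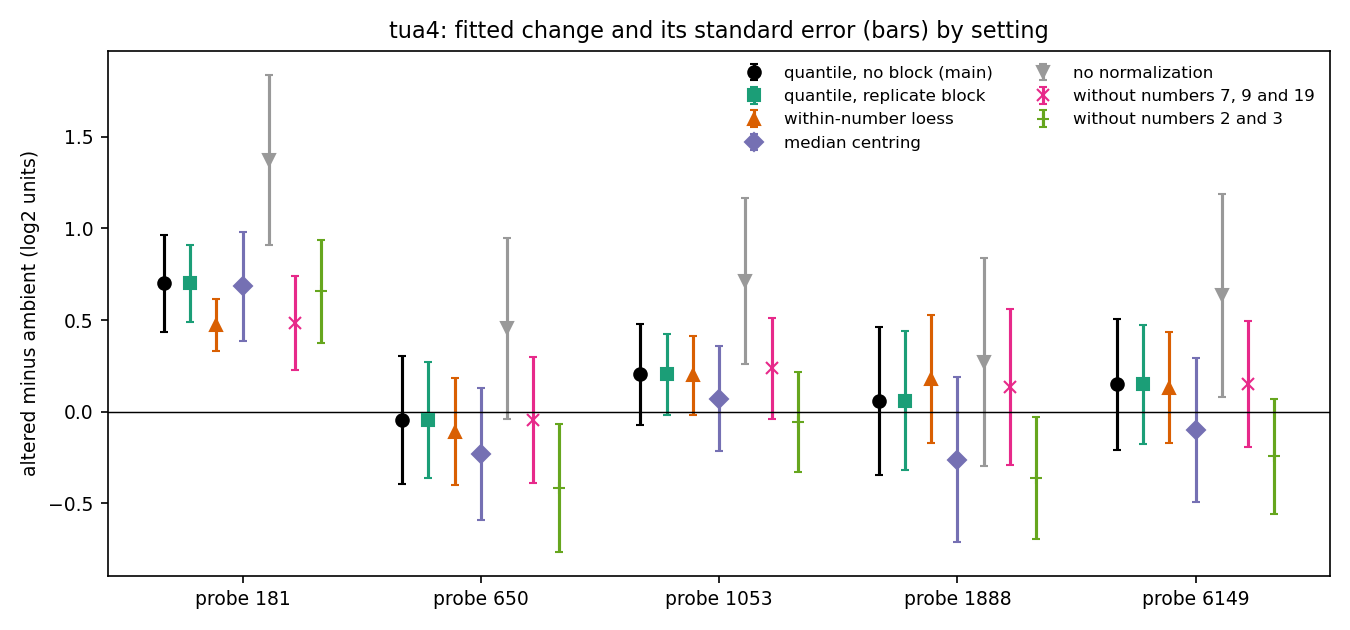
Fitted altered minus ambient difference (log2 units, points) with its standard error (bars) for each tua4 probe under 7 settings. Probe 181 is positive in every setting drawn, from 0.47 to 1.37, while the other 4 probes lie on either side of 0.

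The sample descriptions have 3 wordings, which follow numbers 2 to 6, 7 to 10 and 11 to 19 and may mark batches. Mean differences at probe 181 were 0.73 (4 of 4 numbers higher), 1.17 (3 of 4) and 0.41 (7 of 7) in these sets. At probe 1053 they were 0.81, 0.30 and -0.15, with 2 of 4, 4 of 4 and 4 of 8 higher. At probe 1888 they were 0.65, -0.87 and 0.13, and all 3 numbers of the second set were lower. Probe 650 gave 0.75, -0.29 and -0.43, and probe 6149 gave 0.83 over 4 numbers and -0.32 over 6. When each set was fitted alone, no tua4 probe passed, where 0.258%, 0% and 5.25% of all probes did. No interaction of rainfall with set passed at the 4 tua4 probes with enough values (moderated F-test in limma, adjusted p from 0.986 to 0.999; unadjusted p from 0.33 to 0.50), where 0.0816% of 6124 probes passed.

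The profile of tua4, taken as the mean of its 5 probes each centred on its own mean, was set against the 2519 other tested probes with at least 28 values. Over samples, the median Pearson r of those probes was 0.32, and the 5th and 95th percentiles were -0.06 and 0.59. All points share arrays and normalization, so r is given as a description. The most similar probes with a symbol were those of LOC100037751 (probe 4053, r = 0.80), LOC542436 (probe 1777, 0.70), LOC542333 (probe 4600, 0.70), LOC541625 (probe 8356, 0.69) and mbd105 (probe 4357, 0.68), a methyl-CpG-binding domain gene. Among probes of any annotation, the unnamed probes 3753 (0.81), 11169 (0.79), 8936 (0.77) and 3504 (0.77) stood with probe 4053 in the first 5. None of these 9 probes passed the comparison of altered with ambient rainfall. Their r ran from 0.63 to 0.79 without numbers 2 and 3, and the lists themselves changed. Of the first 5 of any annotation only probe 3753 then remained. LOC542333 and LOC541625 left the named list for LOC542420 and LOC542132. With median centring, LOC542333 and mbd105 left it for TCTP and LOC541942. By within-number difference, LOC100037751 alone stayed in the named list. The candidates differed between lists. There were 2570 probes without numbers 2 and 3, and 4486 for the within-number difference, which asked for at least 11 numbers. Some probes could therefore enter 1 list and not another.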

How the data were processed

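The deposited values are linear spot intensities that the authors gave as 1 series table. No source used here says how they were scanned, background-corrected or scaled. In number 7 both samples held only whole numbers. In every other number 1 sample did, and the other had mostly fractions. In number 2, 100% of ambient and 2.07% of altered values were whole, and in number 8, 0.867% and 100%. The sample with fractions was the altered one in numbers 2, 3, 4, 6, 9, 10, 14, 15, 17, 18 and 19. It was the ambient one in numbers 8, 11, 12 and 13. The form of the values was thus not balanced between the rainfall groups. A scaling of 1 sample to the other was not tested. Values at 0 (1509, 0.777%) were set missing, the rest were taken as log2 and quantile normalized between samples. Probes with at least 8 values in each group (6384) entered a two-sided lmFit and eBayes fit without a block, in limma 3.58.1 under R 4.3.3. Intervals of fitted differences are 95% t intervals of that fit. The fit was tested on simulated data.

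The title number was also fitted as a block. The pairing comes from the identical missing spots. Deviations of the 2 samples of a number from their group means correlated between -0.25 and 0.36, above 0.1 in 2 of 16. Loess log ratios used a span of 0.4. Permutation tests used numpy 2.4.6. Local background and its flags were not used here, so no lower limit of detection can be given, and the number of arrays limits the precision. Gene names come from the platform annotation (728 probes with a symbol). Named probes were all tua4 probes and the 5 most similar with and without regard to a symbol. The members, lists and tests were chosen with earlier results of these data known.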

Additional observations from a re-analysis of the deposited data

How the results depend on the processing

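Of the alternatives tried, the replicate block (0.70, adjusted p = 0.042) and within-number loess (0.47, adjusted p = 0.046) brought probe 181 past the threshold of limma's test; it did not pass in the others and stayed positive in all of them. No other tua4 probe passed under any alternative. The block changed no other call. Signs of the other 4 probes turned as follows; the cause was not tested. Probe 650 was 0.45 without normalization and 0.79 within numbers 2 to 6. Probe 1053 was -0.15 within numbers 11 to 19 and -0.056 without numbers 2 and 3, with or without the block. Probe 1888 was -0.26 with median centring, with or without the block, -0.88 within numbers 7 to 10 and -0.36 without numbers 2 and 3. Probe 6149 was -0.10 with median centring, with or without the block, -0.32 within numbers 11 to 19 and -0.24 without numbers 2 and 3. Leaving out each number in turn gave 0.57 to 0.75 for probe 181, -0.22 to 0.10 for probe 650, 0.066 to 0.27 for probe 1053, -0.16 to 0.20 for probe 1888 and -0.036 to 0.33 for probe 6149. Of the 10 pairs of probes, 6 had correlated differences. This count became 10 without normalization, where offsets between whole samples enter. It became 0 within numbers 11 to 19, with 6 or 7 numbers a pair, and 0 without numbers 2 and 3. Pairs whose responses differed went from 0 to 1 without numbers 2 and 3, a choice that by itself widens the gap between probe 181 and the others. The fits without numbers 2 and 3, the block or loess without numbers 7, 9 and 19, and loess for pairs of probes were chosen after seeing the data. Probes 650 and 6149 could not be fitted within numbers 7 to 10, and only probe 1053 among probes measured in all samples. The number of arrays limits the precision: fitted standard errors of the 5 probes ran from 0.26 to 0.40 log2 units.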
